A study of Mus musculus with 4 samples.

Results

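The Wnt family genes described here encode the secreted Wnt ligands, the R-spondins that strengthen Wnt signals, the Frizzled and LRP receptors, the secreted antagonists and the first intracellular and nuclear steps of the pathway. They were taken by gene name from the array annotation (names beginning Wnt, Fzd, Sfrp, Dkk, Rspo, Axin and Tcf7 with their numbers, and Lef1, Lrp5, Lrp6, Wif1, Ctnnb1 and Porcn). The name rule itself uses no measured values, but it was chosen with earlier results of these data known. The names gave 51 genes with 74 probes, out of 28478 genes with 41174 probes on the array. Of the 51 genes, 36 were well above background on all 4 arrays and 5 on none (Wnt2b, Wnt8a, Wnt8b, Sfrp5 and Dkk4). A further 2 probes carry the old name Tcf3 and belong to Tcf7l1 by accession, so the name rule missed them.

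Total RNA of embryonic mouse fibroblasts, the connective tissue cells of the embryo in culture, was hybridised to 4 one-colour Agilent arrays, 1 per condition. Four-factor cells had received the genes for Oct3/4, Sox2, Klf4 and c-Myc by transduction, the set used to reprogramme somatic cells, and were kept for 72 hours at 5% O2 or at 21% O2 (labelled day 4). The other arrays held untransduced fibroblasts kept for 10 days at 5% O2 or at 21% O2 (labelled day 10). All 4 samples are bulk cultures, and the labels give neither strain, embryo age, vector nor the share of cells that took up the factors.

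Wnt ligands are lipid-modified proteins, acylated by Porcn before secretion, that bind a Frizzled receptor together with Lrp5 or Lrp6. Binding disables the complex in which Axin holds beta-catenin (Ctnnb1) for destruction, and beta-catenin then enters the nucleus and acts with the TCF/LEF factors on target genes. Sfrp proteins and Wif1 bind Wnt ligands outside the cell, Dkk1 and Dkk2 bind the LRP co-receptors, and R-spondins keep Frizzled receptors at the surface by acting through Lgr receptors.

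On the 4 arrays, between 57.1% and 68.4% of probes were well above background, no spot was saturated, and the median SD between replicate spots of a probe was 0.041 to 0.055 log2 units, an error of the spot that says nothing of the culture. The 4 samples had no replicate, so a difference between 2 arrays carries no error of its own and no p-value. The four-factor arrays shared 1 slide and scan and the untransduced arrays another, so transduction, time in culture and slide cannot be told apart, whereas both arrays of an oxygen comparison lay on the same slide. Of the transduced genes, Pou5f1 (Oct3/4) was measured only on the four-factor arrays, at -0.20 log2 units at 5% O2 and -0.59 at 21% O2. For Myc the four-factor minus untransduced difference was 4.17 at 5% O2 and 2.59 at 21% O2. For Klf4 it was -1.70 and -1.14, and for Sox2 it was -2.82 at 5% O2 and, with the four-factor array too dim to measure, a bound of -2.36 at 21% O2, so the RNA of both genes was lower. Whether these probes detect the transduced copies was not tested. All 10 fibroblast markers were measured on every array, and their summed level (in multiples of the array's 75th percentile) was 502 and 549 in four-factor cells against 1095 and 1057 in untransduced fibroblasts at 5% O2 and at 21% O2. The summed level of 12 macrophage markers was 0.755 and 0.92 in four-factor cells against 37.4 and 16.9 in untransduced fibroblasts, and 6 of them, Ptprc and Adgre1 among them, were not well above background on the four-factor arrays. In such bulk samples fewer cells of a type and less RNA per cell cannot be told apart.

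Levels below are log2 values of the signal over the array's 75th percentile, so 0 is the 75th percentile of that array, and each gene is read from its brightest probe. Levels compare one gene between arrays and not different genes. A difference counts as a change here when it is at least 2-fold, or 1 log2 unit, with both arrays well above background. Where only 1 array was, the difference is a lower bound: the dim signal was set to the faintest signal that passed as well above background on its array, or kept where it was brighter. Such a bound holds for this processing only, and other background correction can give a smaller difference. The plot of levels shows that most genes separate by culture, with the 2 oxygen levels of a culture close together. Such separation was common on these arrays and is not particular to the family. Of all genes well above background on all 4 arrays, 41.2% were lower on both four-factor arrays than on both untransduced arrays, and 40.9% were higher.

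**Figure D1:**
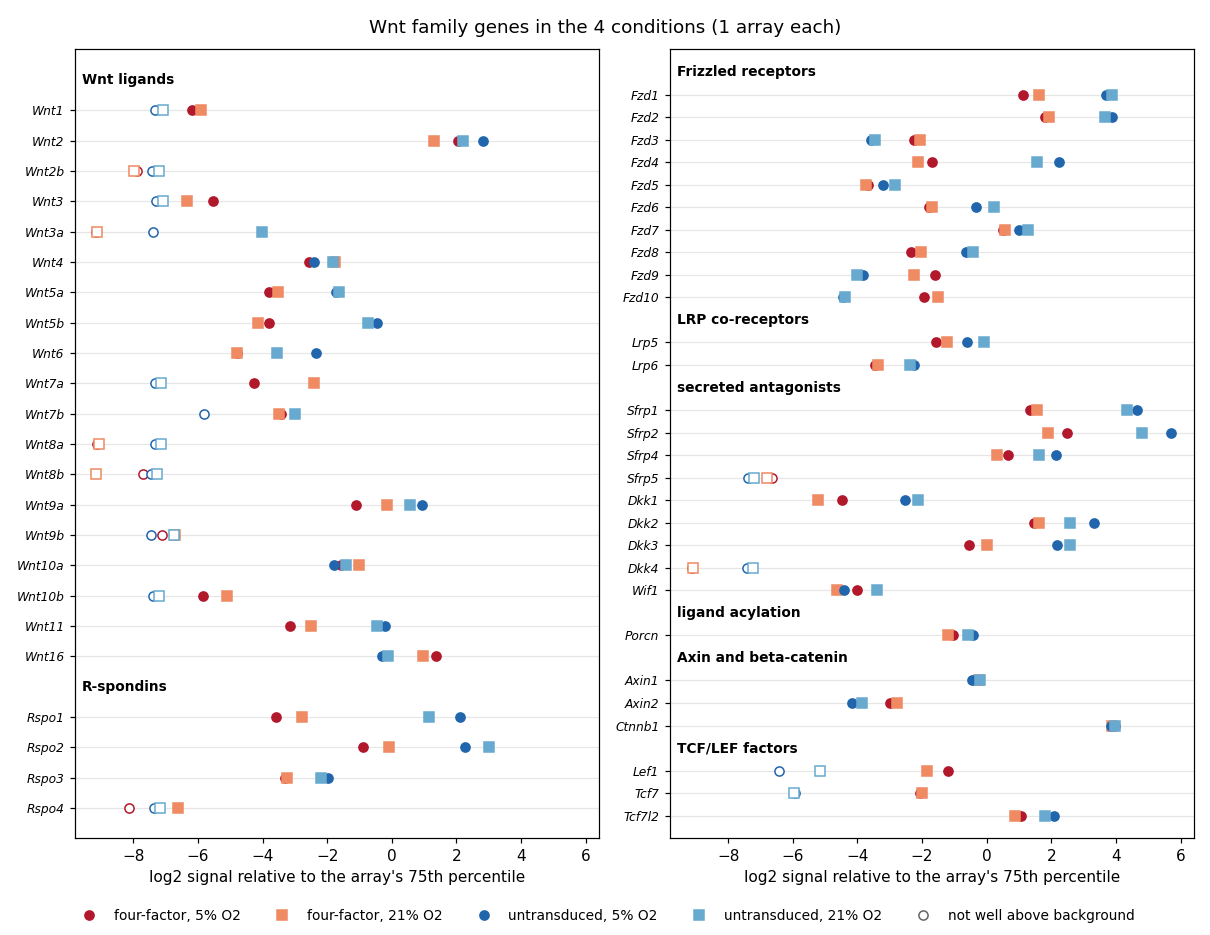
Level of each of the 51 Wnt family genes (log2 of the signal over the array's 75th percentile) on the 4 arrays, grouped by role; red and orange are four-factor cells at 5% and 21% O2, dark and light blue untransduced fibroblasts at 5% and 21% O2, and open symbols are not well above background. Fzd4, for example, lies at -1.70 and -2.13 in four-factor cells and at 2.24 and 1.56 in untransduced fibroblasts.

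Most measured Wnt family genes were lower in four-factor cells than in untransduced fibroblasts. At 5% O2, 21 of 36 measured genes were 2-fold or more lower and 5 were 2-fold or more higher, where 19.9% of all 15879 measured genes were lower and 17.1% higher. At 21% O2, 19 of 37 genes were at least 2-fold lower and 5 at least 2-fold higher, where the shares over all 15643 measured genes were 16.5% lower and 11.8% higher. The median difference of the family was -1.38 at 5% O2 and -1.06 at 21% O2, where the median of all genes was -0.02 in each. Of the 36 genes measured on all 4 arrays, 17 were at least 2-fold lower at both oxygen levels (47.2%, where 14.1% of all genes were) and 5 at least 2-fold higher (Fzd3, Fzd9, Fzd10, Wnt16 and Axin2). The array's spike-in controls, used for scaling, moved the median of all genes to 0.59 at 5% O2 and 0.39 at 21% O2. Under that scaling 34.2% of all genes were at least 2-fold higher and 11.3% lower at 5% O2, and 22.9% higher and 10.8% lower at 21% O2, and the family had 5 higher and 16 lower at 5% O2 (median -0.78) and 5 higher and 14 lower at 21% O2 (median -0.65).

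**Figure D2:**
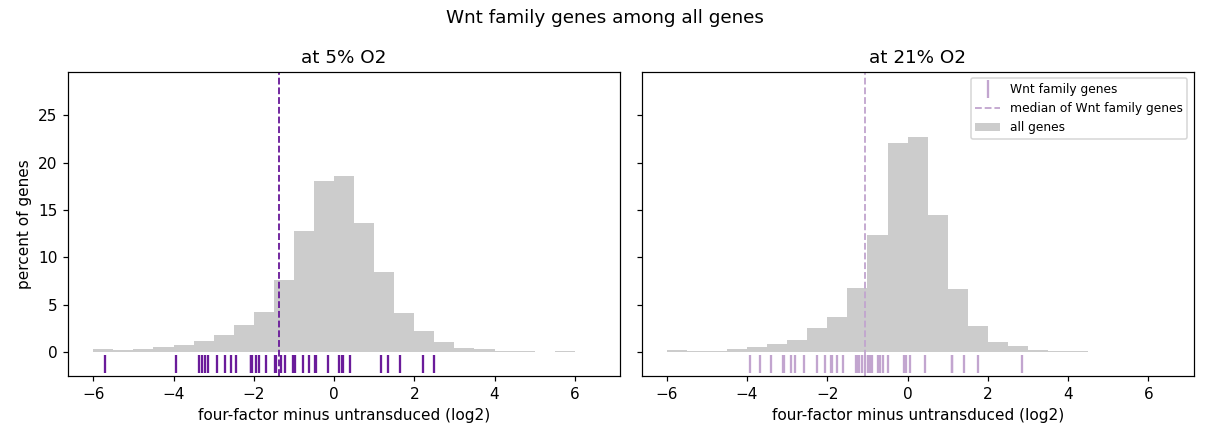
Distribution of the difference between four-factor cells and untransduced fibroblasts over all genes measured on both arrays (grey bars, percent of genes per 0.5 log2 units, values beyond 6 in the end bins) at 5% and 21% O2. Ticks under each distribution are the Wnt family genes and the dashed line is their median, -1.38 at 5% O2 and -1.06 at 21% O2.

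All 4 arrays also entered an additive limma fit of culture and oxygen over the 18836 genes that were well above background on 2 or more of them, 43 in the Wnt family. Its single residual degree of freedom is the difference between the oxygen responses of both cultures, so it measures agreement between the 2 oxygen levels and not spread between cultures. By this limma test with Benjamini-Hochberg adjustment over all genes, 23 of the 43 fell and 11 rose in four-factor cells, where 22.5% of all genes fell and 27.1% rose. Of the 11 that rose, 6 (Tcf7, Lef1, Wnt7a, Wnt10b, Wnt1 and Wnt3) entered the fit through the four-factor arrays alone, because their brightest probes were not well above background on either untransduced array. Their direction was fixed by that filter and is no support for a rise, and their estimates rest on signals near background. Among the 36 genes well above background on all 4 arrays, 23 fell and 5 rose, where 24.7% of all 15341 such genes fell and 23.3% rose. Both four-factor arrays lay below both untransduced arrays for 26 of these 36 genes and above them for 5, where this held for 41.2% (below) and 40.9% (above) of all such genes.

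Among the Wnt ligands, 9 of 19 were measured on all 4 arrays. Wnt5a, Wnt5b and Wnt11, usually linked to beta-catenin-independent signalling, were lower in four-factor cells. Wnt5b, read by a probe at mm8 chr6:119398613-119398672, had levels of -3.80 and -4.14 in four-factor cells against -0.44 and -0.74 in untransduced fibroblasts at 5% and 21% O2. Both four-factor arrays lay more than 3 log2 units below both untransduced arrays, a 10.2-fold and a 10.6-fold difference (limma estimate -3.38, SE 0.16, adjusted p = 0.00339). Wnt5a, a ligand of cell migration and polarity, was at -3.81 and -3.53 in four-factor cells against -1.74 and -1.63 in untransduced fibroblasts, a difference of -2.07 at 5% O2 and -1.89 at 21% O2. Wnt11, a related ligand of tissue movement in embryos, was at -3.15 and -2.51 in four-factor cells against -0.22 and -0.46 in untransduced fibroblasts. All 3 ligands fell in the limma fit.

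Wnt6 and Wnt9a were lower in four-factor cells, with the larger difference at 5% O2. Wnt6 was at -4.78 on both four-factor arrays against -2.34 and -3.56 in untransduced fibroblasts at 5% and 21% O2. Its difference was -2.43 at 5% O2 and -1.22 at 21% O2. Wnt9a was at -1.10 and -0.15 in four-factor cells against 0.94 and 0.55 in untransduced fibroblasts, and its limma estimate of -1.37 (SE 0.38) had an adjusted p of 0.0508. Wnt2, a ligand of lung and mesenchyme, was at 2.06 and 1.29 in four-factor cells against 2.83 and 2.21 in untransduced fibroblasts. It fell in the limma fit without reaching 2-fold at either oxygen level.

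Wnt16, a ligand expressed in bone and joint tissue, was the only ligand measured on all arrays that was at least 2-fold higher in four-factor cells. It was at 1.36 and 0.96 in four-factor cells against -0.29 and -0.13 in untransduced fibroblasts at 5% and 21% O2, so the cultures did not overlap (limma estimate 1.37, SE 0.22, adjusted p = 0.0151). Wnt7a, best known from limb and neural development, was at -4.26 and -2.40 in four-factor cells and not well above background in untransduced fibroblasts, which makes it at least 1.83-fold higher at 5% O2 and at least 5.80-fold higher at 21% O2. By such bounds 3 of the 7 family genes measured on 1 array were at least 2-fold higher at 5% O2 (Lef1, Wnt7b and the brightest probe of Tcf7) and none lower. At 21% O2, 3 of 9 were at least 2-fold higher (Lef1, Wnt7a and the brightest probe of Tcf7) and 1 at least 2-fold lower (Wnt3a). Over all genes measured on 1 array, 11.7% were higher by bound and 13.4% lower at 5% O2, and 9.98% higher and 10.9% lower at 21% O2. Wnt3a, a canonical ligand, was well above background in untransduced fibroblasts at 21% O2 alone, at -4.01. Wnt7b was at -3.44 and -3.50 in four-factor cells and at -3.00 in untransduced fibroblasts at 21% O2, and was not well above background in untransduced fibroblasts at 5% O2, a bound of at least 3.22-fold between the cultures at 5% O2. With normexp background correction the differences were smaller than these bounds. They were 0.77 and 1.85 log2 units for Wnt7a at 5% and 21% O2. Wnt7b at 5% O2 (0.93) and Wnt3a at 21% O2 (-0.99) then came under 2-fold. Wnt1, Wnt3 and Wnt10b were measured on the four-factor arrays only, with signals too dim for a bound. The faintest signal well above background was 9.64 and 9.86 on the four-factor arrays at 5% and 21% O2. On the untransduced arrays it was higher, at 24.9 and 26.5. A dim gene could therefore pass on the four-factor arrays alone, and Wnt1, for example, had signals of 15.8 and 19.1 there. Wnt4 differed between cultures by -0.16 at 5% O2 and 0.07 at 21% O2, and Wnt10a by 0.21 and 0.42.

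All 3 R-spondins measured on all arrays were at least 2-fold lower in four-factor cells at both oxygen levels, and all 3 fell in the limma fit. Of all genes measured on all 4 arrays, 14.1% were at least 2-fold lower at both oxygen levels and 24.7% fell in the limma fit. Rspo1, read by a probe at mm8 chr4:124511330-124511389, had the largest difference among family genes measured on both arrays. It was at -3.59 and -2.79 in four-factor cells against 2.11 and 1.14 in untransduced fibroblasts at 5% O2 and at 21% O2. The difference was -5.70 at 5% O2 and -3.92 at 21% O2, or 52.0-fold and 15.2-fold lower (limma estimate -4.81, SE 0.48, adjusted p = 0.0074). Rspo2, read by a probe at mm8 chr15:42851255-42851314, was at -0.88 and -0.10 in four-factor cells against 2.26 and 3.01 in untransduced fibroblasts, a difference of -3.14 and -3.11. Rspo3 was at -3.30 and -3.24 against -1.98 and -2.18, and its difference of -1.32 and -1.06 came under 2-fold with normexp background correction or spike-in scaling at both oxygen levels. Rspo4 was measured on 1 array alone, that of four-factor cells at 21% O2.

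The Frizzled receptors, all 10 of which were measured on all 4 arrays, divided between both directions. Fzd1, Fzd2, Fzd4, Fzd6 and Fzd8 were at least 2-fold lower in four-factor cells at both oxygen levels, except that Fzd6 came under 2-fold at 5% O2 with spike-in scaling. Fzd3, Fzd9 and Fzd10 were at least 2-fold higher at both, and all of these receptors passed the limma test in the same directions. Of all genes measured on all 4 arrays, 14.1% were at least 2-fold lower at both oxygen levels and 10.6% higher. In the limma fit 24.7% of those genes fell and 23.3% rose. Fzd4, the receptor for norrin as well as Wnt ligands, was read by a probe at mm8 chr7:89284160-89284219. It was at -1.70 and -2.13 in four-factor cells against 2.24 and 1.56 in untransduced fibroblasts at 5% and 21% O2. It was 15.3-fold lower at 5% O2 and 12.9-fold lower at 21% O2 (limma estimate -3.81, SE 0.17, adjusted p = 0.00336). Fzd1 was at 1.12 and 1.60 in four-factor cells against 3.70 and 3.87 in untransduced fibroblasts, and Fzd2 at 1.81 and 1.92 against 3.88 and 3.67. Fzd6 and Fzd8 were lower by less, with differences of -1.44 and -1.69 at 5% O2 and -1.92 and -1.61 at 21% O2.

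Fzd10, read by a probe at mm8 chr5:128918631-128918690, was at -1.95 and -1.52 in four-factor cells against -4.45 and -4.38 in untransduced fibroblasts at 5% and 21% O2. It was 5.65-fold higher at 5% O2 and 7.27-fold higher at 21% O2 (limma estimate 2.68, SE 0.18, adjusted p = 0.00458). Fzd9 was at -1.60 and -2.25 in four-factor cells against -3.81 and -4.01 in untransduced fibroblasts. Fzd3, a receptor of axon guidance and planar polarity, was at -2.24 and -2.05 against -3.59 and -3.46, and its difference of 1.36 and 1.40 came under 2-fold at 5% O2 with normexp background correction. For all 3 of these receptors both four-factor arrays lay above both untransduced arrays. Fzd5 and Fzd7 had differences between -0.88 and -0.45, their limma adjusted p-values were 0.0558 and 0.0524, and with spike-in scaling both turned to higher at 5% O2.

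Both LRP co-receptors fell in the limma fit, by about the 2-fold limit. Lrp6 was at -3.47 and -3.37 in four-factor cells against -2.24 and -2.37 in untransduced fibroblasts, and Lrp5 at -1.56 and -1.22 against -0.60 and -0.10 at 5% and 21% O2. Porcn differed by -0.62 and -0.61.

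The secreted antagonists were mostly lower in four-factor cells. Of the 7 measured on all arrays, 6 were at least 2-fold lower in four-factor cells at each oxygen level and none at least 2-fold higher, with a median of -1.95 at 5% O2 and -2.57 at 21% O2. Of all measured genes, 19.9% were at least 2-fold lower at 5% O2 and 16.5% at 21% O2. With spike-in scaling 5 of the 7 antagonists were at least 2-fold lower at 5% O2 and 4 at 21% O2. Sfrp2, read by a probe at mm8 chr3:83859869-83859928, was at 2.49 and 1.91 in four-factor cells against 5.70 and 4.82 in untransduced fibroblasts at 5% and 21% O2. Both four-factor arrays were more than 2 log2 units below both untransduced arrays, and the signal was 9.25-fold lower at 5% O2 and 7.53-fold lower at 21% O2 (limma estimate -3.06, SE 0.18, adjusted p = 0.00411). Sfrp1, read by a probe at mm8 chr8:24913185-24913244, was at 1.35 and 1.54 in four-factor cells against 4.65 and 4.35 in untransduced fibroblasts. Sfrp4 was at 0.66 and 0.33 against 2.14 and 1.61, and was under 2-fold at both oxygen levels with spike-in scaling.

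Dkk3, a divergent member of its family whose part in Wnt signalling is less settled, was at -0.53 and 0.01 in four-factor cells against 2.17 and 2.59 in untransduced fibroblasts at 5% and 21% O2 (limma estimate -2.64, SE 0.16, adjusted p = 0.0042). Dkk1, the LRP-binding inhibitor that is itself a target of the pathway, was at -4.48 and -5.21 in four-factor cells against -2.53 and -2.13 in untransduced fibroblasts. Its second probe was at -6.62 and -5.97 against -3.86 and -3.47, so both probes were lower in four-factor cells at both oxygen levels. Dkk2 was at 1.46 and 1.63 in four-factor cells against 3.32 and 2.58 in untransduced fibroblasts, past 2-fold at 5% O2 alone. Wif1 was at -4.02 and -4.64 against -4.41 and -3.40, lower by 2-fold at 21% O2 and not at 5% O2, and the cultures overlapped.

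Of the 10 fibroblast markers, 7 were at least 2-fold lower in four-factor cells at each oxygen level and 1 was higher, by less than 2-fold. Of all measured genes, 19.9% were at least 2-fold lower at 5% O2 and 16.5% at 21% O2. The marker sums of adipocytes (1.68 and 1.59 in four-factor cells against 88.0 and 39.1 in untransduced fibroblasts at 5% and 21% O2) and of meninges and pericytes (3.67 and 4.37 against 17.4 and 12.6) were lower too. The meninges and pericyte markers did not move together. Of 4 measured on both arrays, 1 was at least 2-fold higher at each oxygen level, with 2 lower at 5% O2 and 3 lower at 21% O2. The sum of the epithelial markers was 17.0 and 10.9 in four-factor cells against 3.05 and 1.99 in untransduced fibroblasts. For endothelial markers it was 1.46 and 1.14 against 0.679 and 0.416. For glia and neural crest it was 2.60 and 1.62 against 7.46 and 2.78, and for skeletal muscle 5.28 and 7.55 against 3.19 and 7.84. The epithelial and endothelial sums hide mixed directions. Among epithelial markers measured on both arrays, 4 of 6 passed 2-fold upward at 5% O2 and 2 of 4 at 21% O2. The other 2 at either oxygen level were lower by less than 2-fold. Bounds put 1 more past 2-fold in each direction at 5% O2 and 2 more upward at 21% O2. Of 3 endothelial markers so measured, 1 passed 2-fold upward and 1 downward at either oxygen level. A bound put 1 more upward at 5% O2. The part of these cell populations in the Wnt family differences was not tested.

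**Figure D3:**
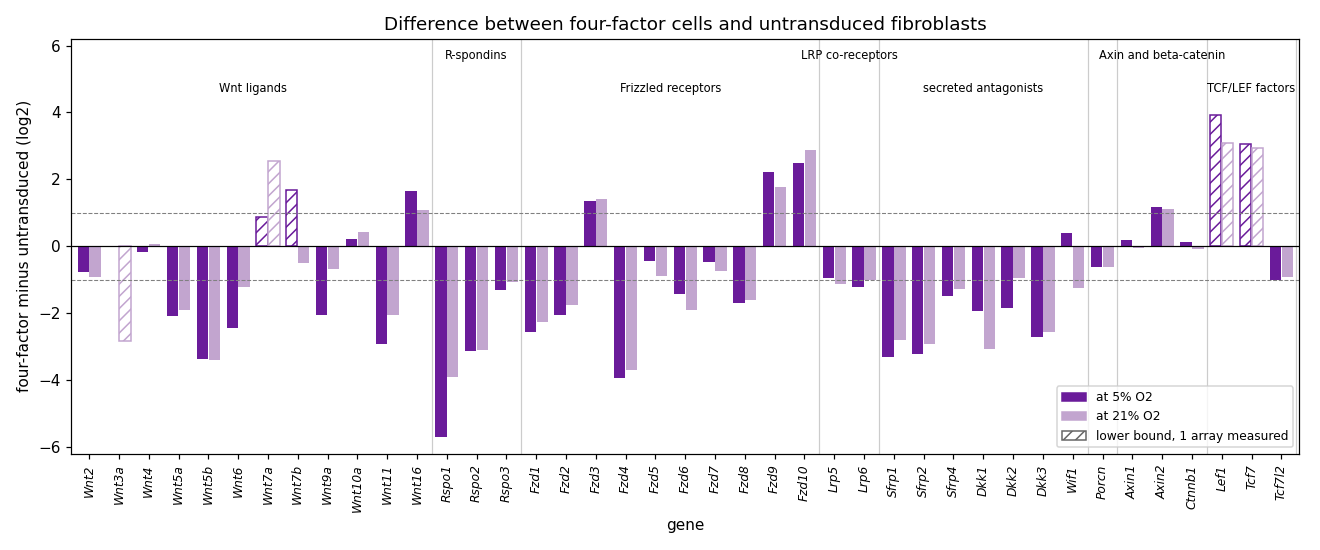
Difference between four-factor cells and untransduced fibroblasts (log2) for each Wnt family gene with a value or bound, by role, at 5% O2 (dark) and 21% O2 (light); hatched bars are lower bounds and dashed lines mark 2-fold. Secreted antagonists and R-spondins lie below 0 apart from Wif1 at 5% O2, and Frizzled receptors lie on both sides, Fzd10 at 2.50 and 2.86 and Fzd4 at -3.93 and -3.69.

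Inside the cell, beta-catenin and Axin1 RNA differed little and Axin2 and Lef1 were higher in four-factor cells, as was Tcf7 by its brightest probe. Ctnnb1, printed as 10 spots per array, was at 3.96 and 3.88 in four-factor cells against 3.85 and 3.98 in untransduced fibroblasts at 5% and 21% O2, with an SD between spots of 0.048 to 0.063. Its differences of 0.11 and -0.09 had opposite signs, and the limma estimate was 0.01 (SE 0.17). Axin1 differed between cultures by 0.20 at 5% O2 and -0.04 at 21% O2. Axin2, the feedback inhibitor widely used as a readout of beta-catenin signalling, was read by a probe at mm8 chr11:108766756-108766815. It was at -2.99 and -2.77 in four-factor cells against -4.17 and -3.87 in untransduced fibroblasts. The cultures did not overlap (limma estimate 1.14, SE 0.16, adjusted p = 0.0126), but both differences, 1.18 at 5% O2 and 1.10 at 21% O2, came under 2-fold with normexp background correction.

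Lef1, whose brightest probe lies at mm8 chr3:131213273-131213332, was at -1.21 and -1.84 in four-factor cells and not well above background in untransduced fibroblasts. The signal was at least 15.1-fold higher at 5% O2 and at least 8.53-fold higher at 21% O2, bounds of 3.92 and 3.09 log2 units. With normexp background correction the Lef1 differences were smaller than these bounds, at 2.70 and 1.94. Its second measured probe had the same pattern, at -2.97 and -3.58 in four-factor cells, and the remaining probe was not well above background on any array. The brightest probe of Tcf7, at mm8 chr11:52096035-52096094, was at -2.08 and -1.99 in four-factor cells and not well above background in untransduced fibroblasts, at least 8.30-fold higher at 5% O2 and at least 7.69-fold higher at 21% O2. These bounds are 3.05 and 2.94 log2 units, and with normexp background correction the Tcf7 differences were smaller, at 1.83 and 1.98. Its other probe was at -3.92 on both four-factor arrays and was well above background in untransduced fibroblasts at 21% O2, at -4.17. Tcf7 RNA was therefore measured in untransduced fibroblasts at 21% O2, and the probes disagreed in size there, the second differing by 0.25 only. Tcf7l2, the TCF factor best known from intestinal epithelium, went the other way at 1.07 and 0.88 in four-factor cells against 2.09 and 1.80 in untransduced fibroblasts, and fell in the limma fit (estimate -0.97, SE 0.16, adjusted p = 0.0168). Tcf7l1, which lies outside the name rule, was at 2.22 and 2.25 against 2.71 and 2.50.

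Promoter windows of the family were read for the letters that TCF/LEF factors bind, because the readout genes and the TCF/LEF genes themselves were among the genes that differed. The windows run from 250 bases before to 50 after each annotated start and are RefSeq sequences of build GRCm38.p6, a different build from the array's probe positions. Windows were given for 33 of the 51 genes, 42 windows in all. The core CTTTGA or CTTTGT, on either strand, was in 10 of the 42 windows (23.8%), where 31.2% of all 32851 windows hold it. The hypoxia response core ACGTG was in 9 of the 42 (21.4%, where 19.6% of all windows hold it), and the E-box CACGTG, which contains ACGTG, in 5 of the 42 (11.9%, where 7.15% do). The POU octamer ATGCAAAT was in 1 of the 42 (2.38%, where 1.74% do).

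In 3 of the windows there was more than 1 TCF/LEF core, and they are shown with that of Axin2, 5′ to 3′ on the gene's strand with the core in capitals. The share of all windows with more than 1 core was not counted, so these 3 are given as sequences only. The genes went in different directions: Lef1 was higher in four-factor cells, and Dkk1 and Fzd1 were lower. The Lef1 window is 1 of its 4 annotated starts and has 3 cores, whereas the windows of its other starts have none. Dkk1 has 3 cores as well, and Fzd1 has 2. The letters searched are not in the Axin2 window.
Lef1, chr3:131156044-131156343, plus strand: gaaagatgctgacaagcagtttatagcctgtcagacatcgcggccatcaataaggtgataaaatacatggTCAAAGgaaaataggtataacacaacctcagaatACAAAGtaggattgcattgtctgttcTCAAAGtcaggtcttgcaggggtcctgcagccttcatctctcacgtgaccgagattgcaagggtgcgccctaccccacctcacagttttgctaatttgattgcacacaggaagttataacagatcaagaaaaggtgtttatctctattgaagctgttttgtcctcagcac
Dkk1, chr19:30549447-30549746, minus strand: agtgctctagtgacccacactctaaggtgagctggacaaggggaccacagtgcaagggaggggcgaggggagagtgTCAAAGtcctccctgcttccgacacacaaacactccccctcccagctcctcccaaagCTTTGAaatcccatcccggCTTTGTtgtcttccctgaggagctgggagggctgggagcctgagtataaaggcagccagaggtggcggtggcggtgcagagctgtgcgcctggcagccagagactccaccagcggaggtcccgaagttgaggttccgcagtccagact
Fzd1, chr5:4758167-4758466, minus strand: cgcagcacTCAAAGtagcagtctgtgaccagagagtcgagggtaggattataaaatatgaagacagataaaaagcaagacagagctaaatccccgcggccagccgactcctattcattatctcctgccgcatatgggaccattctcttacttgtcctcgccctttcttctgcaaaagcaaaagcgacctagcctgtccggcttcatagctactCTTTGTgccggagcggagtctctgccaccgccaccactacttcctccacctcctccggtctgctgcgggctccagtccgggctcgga
Axin2, chr11:108920099-108920398, plus strand: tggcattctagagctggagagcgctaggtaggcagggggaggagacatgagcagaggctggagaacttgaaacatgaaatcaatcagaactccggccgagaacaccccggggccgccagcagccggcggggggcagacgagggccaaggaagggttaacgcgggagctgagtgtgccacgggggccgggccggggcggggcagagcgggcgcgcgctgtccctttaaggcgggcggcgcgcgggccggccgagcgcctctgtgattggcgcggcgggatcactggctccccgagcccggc

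Sfrp2 was the only gene of the 33 with the octamer, the letters bound by Oct3/4 and its relatives, shown here in capitals as the reverse complement ATTTGCAT.
Sfrp2, chr3:83766071-83766370, plus strand: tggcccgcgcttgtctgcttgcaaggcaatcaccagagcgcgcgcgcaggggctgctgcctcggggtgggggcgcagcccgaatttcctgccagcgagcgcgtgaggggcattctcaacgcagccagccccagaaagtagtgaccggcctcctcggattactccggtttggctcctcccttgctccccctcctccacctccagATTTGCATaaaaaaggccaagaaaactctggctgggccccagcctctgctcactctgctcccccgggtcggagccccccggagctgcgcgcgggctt

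Few Wnt family genes passed 2-fold with oxygen. In four-factor cells, 1 of 43 measured genes was at least 2-fold lower at 5% O2 (Wnt7a) and none at least 2-fold higher, where 1.07% of all 18475 measured genes were lower and 1.24% higher. In untransduced fibroblasts, 1 of 36 was at least 2-fold higher (Wnt6) and 1 at least 2-fold lower (Wif1), where 2.51% of all 15619 measured genes were higher and 1.72% lower. By bound, both of the 2 family genes measured on 1 array in untransduced fibroblasts (Wnt3a and Wnt7b) were at least 2-fold lower there. Of all genes measured on 1 array, 13.2% were lower and as many higher. With normexp background correction the difference was -0.87 for Wnt3a, under 2-fold, and -1.18 for Wnt7b. In four-factor cells 0 of 2 members measured on 1 array were past 2-fold by bound, where 8.47% of such genes were higher and 6.87% lower. The family's median difference was -0.09 in each culture, where the median of all genes was -0.01 in four-factor cells and was -0.04 in untransduced fibroblasts. In four-factor cells 18 genes were higher and 25 lower at 5% O2, a split that became 24 higher and 19 lower with spike-in scaling.

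Wnt7a was at -4.26 at 5% O2 against -2.40 at 21% O2 in four-factor cells, a 3.63-fold lower signal, and the gene was not measured in untransduced fibroblasts. Wnt6 was at -2.34 at 5% O2 against -3.56 at 21% O2 in untransduced fibroblasts, 2.32-fold higher, and at -4.78 under both conditions in four-factor cells. Wif1 was at -4.41 at 5% O2 against -3.40 at 21% O2 in untransduced fibroblasts, a 2.02-fold lower signal. Both of these differences in untransduced fibroblasts came under 2-fold with normexp background correction, where Rspo1 and Sfrp2 were just past 2-fold higher instead.

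By limma, the oxygen term was called for none of the 43 Wnt family genes and none of the 18836 genes, the smallest adjusted p being 0.605 in the family and 0.473 over all genes. At an unadjusted p under 0.05, 3 family genes were higher at 5% O2 (Wnt2, Sfrp2 and Fzd4) and 3 lower (Rspo2, Wnt4 and Dkk3), where 655 and 762 of all genes were. With spike-in scaling the limma oxygen term was called for 112 genes higher and 73 lower, none of them in the family. Wnt2 was at 2.06 at 5% O2 against 1.29 at 21% O2 in four-factor cells, and at 2.83 against 2.21 in untransduced fibroblasts (limma estimate 0.69, SE 0.16). Sfrp2 was higher at 5% O2 by 0.58 in four-factor cells and also, by 0.87, in untransduced fibroblasts, and Fzd4 by 0.43 and 0.67. Wnt4 was lower at 5% O2 in both cultures, with differences of -0.83 and -0.60, as was Rspo2, with -0.78 and -0.75.

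Oxygen differences of some members had opposite signs in the 2 cultures, and examples with larger differences are given here. The share of all genes with opposite signs was not counted, so this is not read as a trait of these genes. Rspo1 was at -3.59 at 5% O2 against -2.79 at 21% O2 in four-factor cells, a difference of -0.81, and at 2.11 against 1.14 in untransduced fibroblasts, a difference of 0.97. Wnt9a differed by -0.96 in four-factor cells and by 0.39 in untransduced fibroblasts. Dkk1 differed by 0.73 in four-factor cells and by -0.40 in untransduced fibroblasts, but its second probe was lower at 5% O2 in four-factor cells too, at -6.62 against -5.97. Of genes with several measured probes, probes pointed in opposite directions for Ctnnb1 and Dkk1 (2 of 13) with oxygen in four-factor cells and for Fzd7 (1 of 11) in untransduced fibroblasts. They did so for Ctnnb1 and Fzd5 (2 of 10) between cultures at 5% O2 and for 0 of 11 at 21% O2.

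Markers of some other cell types were higher at 5% O2 in untransduced fibroblasts. Of the measured markers, 11 of 12 of macrophages, 6 of 6 of glia and neural crest and 2 of 2 of adipocytes were at least 2-fold higher, where 2.51% of all genes were. The 4 measured epithelial markers had none past 2-fold and a median of 0.82, and of 5 of meninges and pericytes 2 were at least 2-fold higher and 1 lower. Of 3 endothelial markers 1 was higher and 1 lower, and of 4 of skeletal muscle 1 was lower, with a summed level of 3.19 at 5% O2 against 7.84 at 21% O2. The glia and neural crest sum was 7.46 at 5% O2 against 2.78 at 21% O2 in untransduced fibroblasts and 2.60 against 1.62 in four-factor cells. The fibroblast markers had none past 2-fold with oxygen in either culture. The part of other cells in the oxygen differences of Wnt6, Rspo1, Sfrp2 and Wif1 was not tested.

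**Figure D4:**
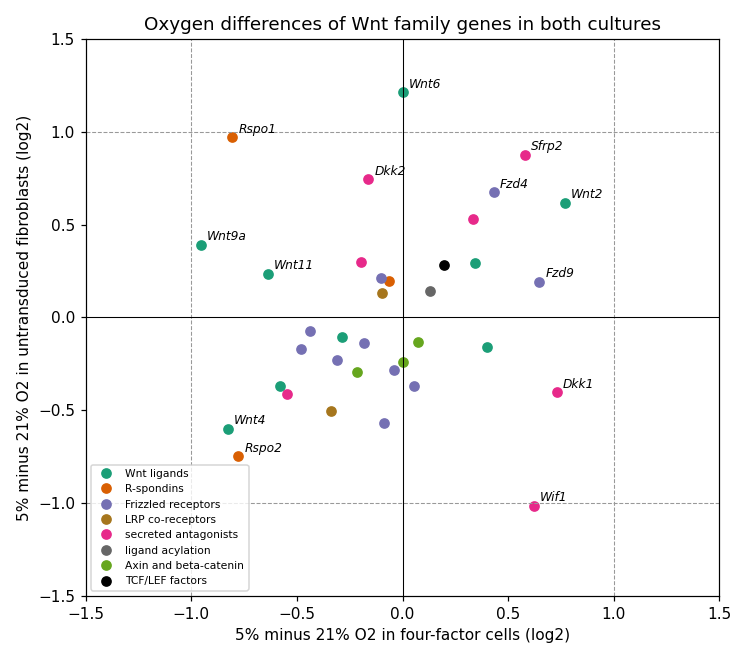
Difference between 5% and 21% O2 (log2) in four-factor cells (x axis) and untransduced fibroblasts (y axis) for the 36 Wnt family genes measured on all 4 arrays, coloured by role; dashed lines mark 2-fold and genes at least 1.5-fold apart in either culture are named. Wnt6 and Wif1 pass 2-fold in untransduced fibroblasts, and Rspo1 lies at -0.81 and 0.97.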

How the data were processed

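RNA of 4 mouse embryonic fibroblast cultures was measured on 1-colour (Cy3) Agilent arrays of design 014868 after Quick Amp labelling (5.7), per the labels' protocols. The scanner's software was Feature Extraction 9.5.3.1 with the settings GE1-v5_95_Feb07, and its processed signal is a background-subtracted, detrended intensity, per the file headers. The deposited value table holds log2 values from a program that no source used here names. Set against the scanner values it followed log2 of the processed signal minus the 75th percentile, with column medians of -3.86 and -3.86 in four-factor cells (5% and 21% O2) and -3.69 and -3.70 in untransduced fibroblasts. It was not centred by probe and, holding no ratio, has no direction. Flags in the files are the authors' extraction output.

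Control spots and outlier spots (65 to 115 per array) were dropped, replicate spots averaged, and each array's 75th percentile over probes subtracted (Python 3.11.15, pandas 2.3.3). A gene took its brightest probe. No replicate exists, so single comparisons have no test, and array number limits precision. The limma 3.58.1 fit (R 4.3.3; lmFit, eBayes, Benjamini-Hochberg, adjusted p under 0.05) used culture and oxygen as terms, and counting and fit were tested on simulated data. Of the family's 74 probes, 65 matched the RefSeq gene table by accession, all with the array's symbol, and 24375 of all probes did. Probe positions are mm8 (NCBI build 36), per the file headers.

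The members, pathway and marker lists, tests and the naming rule were chosen with earlier results of these data known. Every family gene could be named. Pathway genes outside the family were named when at least 2-fold apart with both arrays well above background, up to 4 per direction and comparison by size, and Lgr4 was added after its values were seen. Alternatives were normexp background correction (offset 50) with quantile normalization, quantile normalization, spike-in scaling, the deposited table, no filter on dim probes, the mean of a gene's probes, kept outlier spots and a 1.5-fold limit.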

Additional observations from a re-analysis of the deposited data

Results flagged for a closer look

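Rspo1 and Wif1 differed with oxygen in opposite directions in both cultures, with 1 array per condition, and the difference between cultures was not tested. Rspo1 was -0.81 log2 units (5% minus 21% O2) in four-factor cells and was 0.97 in untransduced fibroblasts. Wif1 was 0.62 in four-factor cells and was -1.02 in untransduced fibroblasts. It was dim, with signals of 40.9 to 76.9, where the faintest signal well above background was 24.9 and 26.5 on the untransduced arrays. With normexp background correction its differences were 0.25 and -0.45, and those of Rspo1 were -0.51 and 1.01.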

How the results depend on the processing

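No paired analysis was possible because each condition had 1 array and the replicate number only names it. For the same reason no replicate could be left out. The count of Wnt family genes at least 2-fold apart stayed within 1.5 times its value in both culture comparisons under every alternative run, at 21 to 36 around 26 at 5% O2 and 19 to 33 around 24 at 21% O2. The small oxygen counts moved. In four-factor cells the count of 1 became 3 with no filter on dim probes, 3 with the mean of a gene's probes and 13 with a 1.5-fold limit. In untransduced fibroblasts the count of 2 became 4 with quantile normalization, 5 with no filter and 9 with a 1.5-fold limit; the cause was not tested beyond what the wider limits add by construction. The limma counts were 0 for oxygen throughout and 32 to 37 around 34 for culture. All genes past 2-fold kept their sign under the 2 background and scaling alternatives, quantile normalization, the deposited table and the mean of probes. Smaller differences turned sign, 6 of 43 with spike-in scaling with oxygen in four-factor cells (the largest 0.10) and 3 of 36 between cultures at 5% O2 (Fzd5, Fzd7 and Wnt4, the largest 0.48). Rspo2 with oxygen in untransduced fibroblasts (-0.75) also turned with the mean of its probes, the second of which was well above background at 5% O2 alone. Normexp correction put Wif1 and Wnt6 (oxygen, untransduced), Axin2, Fzd3, Lrp6 and Rspo3 (culture, 5% O2) and Axin2, Lrp5, Rspo3, Wif1 and Wnt6 (culture, 21% O2) under 2-fold. Of the genes past 2-fold by bound, it put Wnt3a (oxygen, untransduced, and culture, 21% O2) and Wnt7b (culture, 5% O2) under 2-fold. Spike-in scaling did so for Fzd6, Lrp6, Rspo3, Sfrp4 and Tcf7l2 at 5% O2 and Lrp5, Rspo3, Sfrp4, Wif1 and Wnt6 at 21% O2. Signal over background limits the dim members, such as Wnt1, Wnt3 and Wnt10b, most.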

Other observations

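Other genes of the Wnt pathway, a list of 68 outside the family, had 10 of 59 measured genes at least 2-fold higher and 14 lower in four-factor cells than in untransduced fibroblasts at 5% O2 (16.9% and 23.7%, where 17.1% and 19.9% of all genes were). At 21% O2, 6 of 57 were higher and 14 lower (10.5% and 24.6%, where 11.8% and 16.5% of all genes were). Sostdc1, a secreted Wnt and BMP antagonist, was at 2.97 and 3.0 in four-factor cells against -3.21 and -3.53 in untransduced fibroblasts at 5% and 21% O2, a difference opposite to that of the Sfrp and Dkk antagonists above. Dkkl1, a Dkk-like protein best known from testis, was higher by 2.65 and 2.59. Lgr5, a receptor for R-spondins, was at -1.72 and -0.61 in four-factor cells against 3.02 and 2.40 in untransduced fibroblasts, whereas the R-spondin receptors Lgr6 and Lgr4 were not lower. Lgr6 was at -1.81 and -1.61 in four-factor cells against -4.60 in untransduced fibroblasts at 5% O2, and was not well above background in untransduced fibroblasts at 21% O2. Lgr4, chosen after its values were seen, differed by 0.91 and 0.67. Nkd1, a feedback inhibitor and common Wnt target, was at -1.44 and -1.06 against 2.69 and 2.31, whereas Axin2, another common target, was higher in four-factor cells. Igfbp4, which binds Frizzled and LRP proteins, was lower, with differences of -3.94 and -3.09, as was Tle2, a co-repressor of TCF/LEF factors, with -3.86 and -3.16. Fosl1, an AP-1 factor, was higher by 4.28 and 2.44. The planar polarity cadherin Celsr2 was higher by 3.0 at 5% O2, and Celsr1 by 2.23 at both oxygen levels.

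With oxygen, 1 of 63 genes of that list was at least 2-fold higher at 5% O2 in four-factor cells (Celsr1) and 3 were lower (Notum, Lgr5 and Sp5), where 1.24% of all genes were higher and 1.07% lower. In untransduced fibroblasts 2 of 57 were higher (Celsr1 and Igfbp4) and 3 lower (Fosl1, Rnf43 and Cd44), where 2.51% and 1.72% of all genes were. Celsr1 was higher at 5% O2 by 1.18 in four-factor cells and also, by 1.17, in untransduced fibroblasts. Notum, the enzyme that removes the lipid from Wnt ligands, was at -2.30 at 5% O2 against -1.16 at 21% O2 in four-factor cells, and Sp5, a direct target of the pathway, at -5.35 against -4.11. Both were not well above background in untransduced fibroblasts. None of these differences has a replicate.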
